A study of Homo sapiens with 15 samples.

Results

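Bone marrow from mice that received bortezomib together with elesclomol was compared with marrow from mice that received elesclomol alone, so that the difference is bortezomib given on top of elesclomol. The comparison takes 6 of the 15 libraries of the study, chosen by treatment label and not by any measured value. All 15 came from femurs of SCID-beige mice, an immunodeficient strain, that carried MM.1S, an established human multiple myeloma line, in a form that makes green fluorescent protein and luciferase. The combination mice received bortezomib at 0.25 mg/kg once a week into the abdomen and elesclomol at 25 mg/kg under the skin, and the elesclomol mice received elesclomol at the same dose. Bortezomib alone at 0.25 mg/kg and PBS, a saline control, supply the matching step without elesclomol. The remaining group, in which bortezomib was joined by elesclomol 14 days after entry, was not itself compared. It entered the filter on low counts, the scaling of the libraries and the estimate of spread between libraries. Each group held 5 mice, of which 3 gave a library, so n = 3 in each group. Animals were treated until limb paralysis or severe toxicity and marrow was flushed at paralysis, so the libraries show tumours at the end of treatment and not an early response. Tumour and host cells were not separated, all tumours came from a single line, and ages and days on treatment are not known here.

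Bortezomib blocks the proteasome, the particle that breaks down ubiquitin-tagged proteins, and myeloma cells are sensitive to it because plasma cells fold and discard large amounts of antibody protein. Proteasome block is known to induce chaperones, the unfolded protein response and new proteasome subunits within hours. Elesclomol is a copper ionophore: it carries copper into mitochondria, where the reductase FDX1 releases it, and proteins that carry lipoic acid are damaged. ERK, the last kinase of the RAS pathway, induces its own inhibitors, among them the DUSP phosphatases and the SPRED and Sprouty proteins, so the mRNAs of these inhibitors are widely read as a gauge of ERK activity.

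Total counts were 6448673 to 9227140 in the combination libraries and 6602596 to 7977375 in the elesclomol libraries. Levels are given as CPM, counts scaled to a common library size with TMM factors, and log2 changes are combination over elesclomol unless stated. All 9 plasma cell markers were present in every library, with a summed level of 13465 to 15372 CPM in the combination group and 14905 to 15992 CPM in the elesclomol group. Elesclomol 1 stood apart in blood cell transcripts. The 11 erythroid markers summed to 471 CPM there, against 174 to 193 CPM in the combination libraries and 148 and 185 CPM in the other elesclomol libraries, and the 11 granulocyte markers to 143 CPM, against 10.9 to 33.5 CPM and 14.7 and 32.5 CPM. TFRC alone gave 155 to 180 CPM of the erythroid sum in the combination libraries and 118 to 150 CPM in the elesclomol libraries. In bulk marrow, fewer cells of a type and less RNA per cell cannot be told apart. Combination 1 stood apart in base composition, with a correlation between a gene's deviation and its GC content of 0.494 across genes, against -0.272 to 0.157 in the other 5 libraries of the comparison. The part of either feature in the results was not tested beyond the values given with and without these libraries.

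No gene passed the test between the combination and elesclomol. The edgeR quasi-likelihood test called 0 of 13085 genes (0%) at a Benjamini-Hochberg adjusted p under 0.05, while 1597 genes (12.2%) had an unadjusted p under 0.05, 836 higher (6.39%) and 761 lower (5.82%) in the combination. An adjusted p under 0.1 was reached by 12 genes (0.0917%). Regardless of p, 48.9% of genes had a log2 change above 0 and 51.1% below 0, which is the background for the counts of list members given as higher or lower. The count depended on the tool: DESeq2 called 53 genes (0.405%), 31 higher and 22 lower, and limma voom with quality weights called 205 (1.57%), 105 higher and 100 lower. Of the DESeq2 calls, 46 were also called by voom. The 24 genes described first have the smallest p among well expressed genes whose combination and elesclomol libraries did not overlap, 12 in each direction. Their adjusted p in edgeR lay between 0.0888 and 0.153, so none passed; 22 were called by DESeq2 and 23 by voom. Over all tested genes, 2099 (16%) had libraries that did not overlap, 1121 higher (8.57%) and 978 lower (7.47%).

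Genes that limit or report ERK signalling were among those with the smallest p, and all were higher in the combination. DUSP2, a nuclear phosphatase that inactivates MAP kinases, was at 20.1, 11.1 and 11.2 CPM in the combination and 6.25, 5.32 and 5.23 CPM in elesclomol. Every combination library lay above every elesclomol library, and combination 1 was the highest (log2 change 1.35 ± 0.25 SE, adjusted p = 0.0888). SPRED1, which holds RAS in check through neurofibromin, was at 69.2, 77.7 and 87.4 CPM in the combination and 41.7, 43.7 and 44.1 CPM in elesclomol. The elesclomol libraries were almost level and the combination libraries all higher (0.85 ± 0.15, adjusted p = 0.0888). ETV5, an ETS transcription factor downstream of ERK, was at 67.4, 39.8 and 49.3 CPM in the combination and 23.0, 22.1 and 26.8 CPM in elesclomol, again without overlap (1.12 ± 0.21, adjusted p = 0.0888). PHLDA1, a pleckstrin-like protein whose mRNA follows ERK activity, was at 82.1, 79.4 and 57.9 CPM in the combination and 41.0, 43.8 and 34.5 CPM in elesclomol (0.88 ± 0.17, adjusted p = 0.0948). DUSP6, the cytoplasmic ERK phosphatase, was at 64.3, 46.9 and 50.2 CPM in the combination and 25.9, 26.3 and 32.6 CPM in elesclomol (0.93 ± 0.21, adjusted p = 0.156). Both DUSP6 and PHLDA1 were higher in each combination library than in any elesclomol library.

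The wider list of RAS-ERK output and feedback genes was mixed. Of its 17 genes 15 passed the filter on low counts; 12 were higher and 3 lower in the combination, 0 passed the test, and the median log2 change was 0.59, against -0.01 over all tested genes. In 6 of the 15 the libraries did not overlap, all 6 higher, against 16% of all tested genes without overlap. SPRY4 (0.98 ± 0.42), which like SPRED1 limits the pathway, and the ETS factor ETV4 (0.59 ± 0.43) were also higher but with overlapping libraries. DUSP4, a further MAP kinase phosphatase, was at 92.0, 78.8 and 102 CPM in the combination and 132, 145 and 86.3 CPM in elesclomol (-0.41 ± 0.26), and DUSP5 was also lower (-0.24 ± 0.23). The median was 0.23 without combination 1 and 0.21 without elesclomol 3, so its size rested on these 2 libraries. DUSP2, SPRED1, ETV5 and PHLDA1 kept their direction when any library was left out. Their choice for lack of overlap fixes that outcome in advance. Among the early growth response genes, which ERK also induces, EGR2 was at 3.98, 1.20 and 2.12 CPM in the combination and 0.305, 0.420 and 0.487 CPM in elesclomol (2.56 ± 0.66, adjusted p = 0.205). EGR3 (1.74 ± 0.70) and EGR1 (0.82 ± 0.63) were higher with overlapping libraries. The immediate early list as a whole did not move one way, with 6 of its 18 tested genes higher, 12 lower and a median of -0.14 that ran from -0.50 without combination 1 to 0.07 without combination 3. FOS was at 69.9, 21.2 and 9.74 CPM in the combination and 63.8, 72.9 and 7.67 CPM in elesclomol, a spread within each group far wider than the difference between them. JUN, its partner in AP-1, was at 200, 88.1 and 57.6 CPM in the combination and 140, 173 and 66.3 CPM in elesclomol (-0.13 ± 0.42).

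HDAC9, a class IIa histone deacetylase that binds MEF2 transcription factors, had the smallest p among the named genes. It was at 86.9, 92.6 and 71.8 CPM in the combination and 44.0, 46.5 and 40.3 CPM in elesclomol. The lowest combination library exceeded the highest elesclomol library by more than the spread inside either group (0.94 ± 0.16, adjusted p = 0.0888). ANKRD37, an ankyrin repeat protein induced by low oxygen, was at 139, 163 and 143 CPM in the combination and 87.0, 80.9 and 94.5 CPM in elesclomol (0.76 ± 0.15, adjusted p = 0.104). GOLPH3L, a Golgi protein that binds phosphatidylinositol phosphate, was at 77.8, 73.8 and 75.0 CPM in the combination and 47.4, 36.7 and 49.8 CPM in elesclomol (0.76 ± 0.13, adjusted p = 0.0888). The combination libraries of both genes were close together and clear of the elesclomol libraries. The other genes of this group were ATP8A2, a phospholipid flippase (0.98 ± 0.18), HOMER3, a scaffold protein (1.03 ± 0.22), SMIM14, a small membrane protein (0.89 ± 0.19), IFFO1, of the intermediate filament family (0.74 ± 0.15), and OSTC, a subunit of the enzyme that attaches sugar chains to new proteins in the endoplasmic reticulum (0.43 ± 0.09).

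Genes lower in the combination with the smallest p had different roles. FBXO32, the substrate-binding part of an SCF ubiquitin ligase also known as atrogin-1, was at 9.94, 12.6 and 13.8 CPM in the combination and 35.5, 25.6 and 25.0 CPM in elesclomol. The groups were well separated (-1.24 ± 0.23, adjusted p = 0.0888). KLF3, a zinc finger repressor, was at 39.6, 36.7 and 44.3 CPM in the combination and 97.4, 94.3 and 76.7 CPM in elesclomol (-1.15 ± 0.22, adjusted p = 0.104). FOXP1, a forkhead factor of B cells, was at 48.6, 46.7 and 51.0 CPM in the combination and 79.5, 81.5 and 73.3 CPM in elesclomol (-0.68 ± 0.12, adjusted p = 0.0888). For FOXP1 the spread inside each group was small beside the gap between the groups. For KLF3 the elesclomol libraries lay further apart but clear of the combination. STAT4, which relays interleukin-12 signals, was at 2.87, 6.46 and 4.38 CPM in the combination and 10.2, 12.9 and 11.6 CPM in elesclomol (-1.36 ± 0.29, adjusted p = 0.139). The cell surface proteins FAT1, an atypical cadherin (-0.47 ± 0.09, adjusted p = 0.104), and ITGA6, an integrin subunit that binds laminin (-0.64 ± 0.13, adjusted p = 0.111), were lower. So were 4 genes of protein processing: TPP1, a lysosomal peptidase (-0.61 ± 0.11), MBTPS1, the site-1 protease that activates SREBP and ATF6 (-0.40 ± 0.08), NPEPPS, a cytosolic aminopeptidase (-0.49 ± 0.11), and FOXRED2, a flavoprotein of endoplasmic reticulum-associated degradation (-0.52 ± 0.12). TMEM178B (-0.94 ± 0.21) and MBIP (-0.67 ± 0.15) complete the 12. DDX60, an interferon-induced helicase named here after its values were seen, also had an adjusted p of 0.0888, with 0.663, 1.35 and 1.13 CPM in the combination and 3.50, 3.78 and 3.41 CPM in elesclomol (-1.78 ± 0.31).

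**Figure D1:**
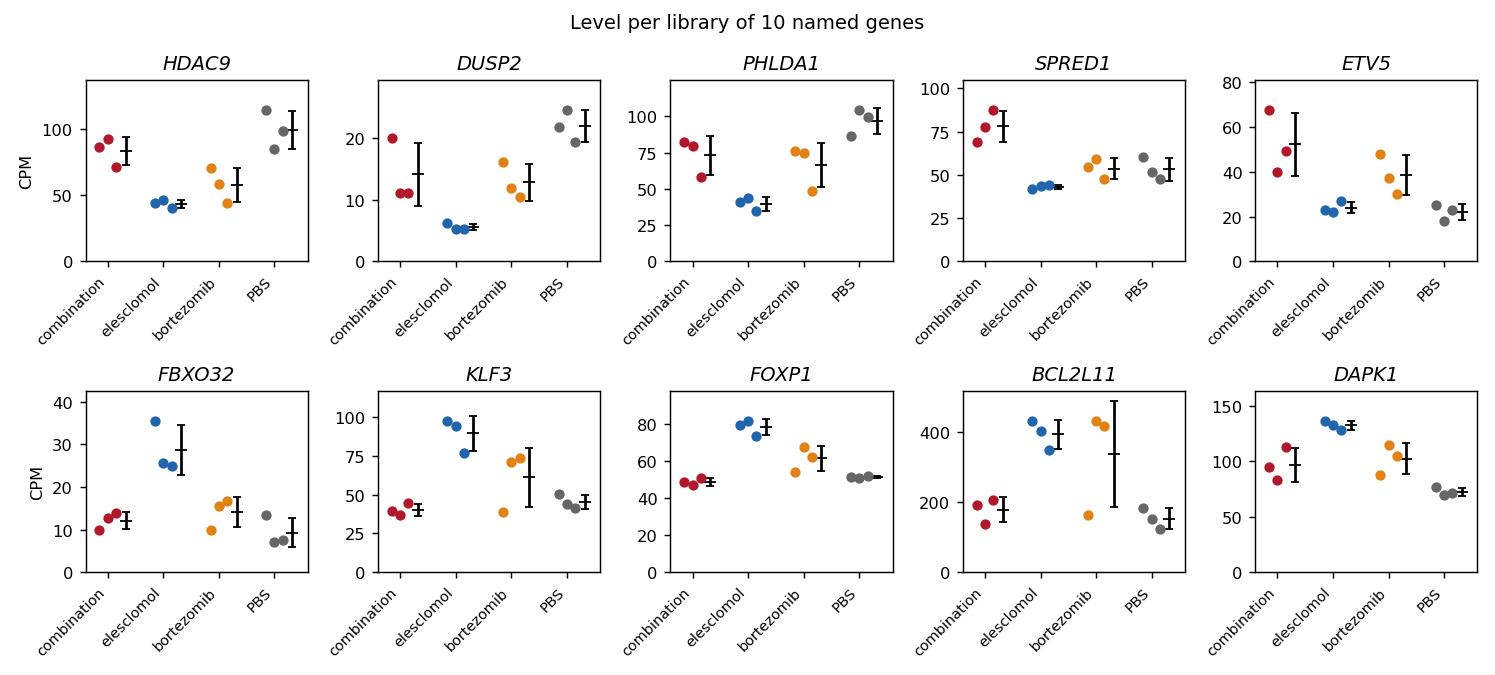
Level in CPM (vertical axes, from 0) of 10 genes in the 3 libraries each of the combination, elesclomol, bortezomib and PBS groups, as points, with the group mean and SD in black. HDAC9, DUSP2, PHLDA1, SPRED1 and ETV5 lie higher in the combination than in elesclomol, and FBXO32, KLF3, FOXP1, BCL2L11 and DAPK1 lower, without overlap.

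BCL2L11, which encodes BIM, a BH3-only protein that starts apoptosis, showed a difference of similar size that did not pass the test. Its level was 192, 138 and 206 CPM in the combination and 432, 404 and 350 CPM in elesclomol, so that the groups did not overlap (-1.15 ± 0.30, adjusted p = 0.209; DESeq2 adjusted p = 0.0239). In bortezomib libraries it was 164, 433 and 417 CPM, against 183, 154 and 124 CPM in PBS libraries (1.14 ± 0.30, adjusted p = 0.419). Bortezomib 1 lay at the PBS level and the other bortezomib libraries at the elesclomol level. BMF, a second BH3-only gene, was at 21.5, 10.97 and 14.4 CPM in the combination and 21.9, 23.8 and 19.965 CPM in elesclomol, with overlap (-0.47 ± 0.21). The 7 tested BH3-only genes divided into 3 higher and 4 lower; BID (0.25 ± 0.11) and BBC3, which encodes PUMA (0.41 ± 0.27), were higher. Of the survival genes, MCL1 was at 816, 771 and 792 CPM in the combination and 612, 557 and 770 CPM in elesclomol (0.29 ± 0.14, adjusted p = 0.425), and BCL2L1, which encodes BCL-XL, was lower (-0.41 ± 0.13, adjusted p = 0.26).

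The promoters of DUSP2, SPRED1 and BCL2L11 are shown because the first pair stood higher together and BCL2L11 stood lower. They are RefSeq windows on GRCh38.p14, from 250 bases before to 50 after the annotated start, written 5′ to 3′ on the gene's strand, whereas the counts were made on GRCh37. DUSP2 is at chr2:96145391-96145690 on the minus strand, SPRED1 at chr15:38252586-38252885 on the plus strand and BCL2L11 at chr2:111120664-111120963 on the plus strand. Both strands were searched for TGANTCA (AP-1), TGACGTCA (CRE), CCGGAAG (ETS), GTAAACA (FOXO) and the CArG box, which occur in 7.71%, 1.85%, 10.3%, 3.42% and 1.29% of 35116 RefSeq promoters of this length. Capitals mark a match. The DUSP2 and SPRED1 windows hold none of the 5, and the BCL2L11 window holds a FOXO motif at base 28. These matches describe the letters of the windows and are not evidence of binding.
DUSP2: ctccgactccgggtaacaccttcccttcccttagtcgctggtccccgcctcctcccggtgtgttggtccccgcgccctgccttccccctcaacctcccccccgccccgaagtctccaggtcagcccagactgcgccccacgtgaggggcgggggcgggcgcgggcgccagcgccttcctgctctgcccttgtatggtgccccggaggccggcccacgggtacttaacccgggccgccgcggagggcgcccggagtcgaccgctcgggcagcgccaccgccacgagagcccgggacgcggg
SPRED1: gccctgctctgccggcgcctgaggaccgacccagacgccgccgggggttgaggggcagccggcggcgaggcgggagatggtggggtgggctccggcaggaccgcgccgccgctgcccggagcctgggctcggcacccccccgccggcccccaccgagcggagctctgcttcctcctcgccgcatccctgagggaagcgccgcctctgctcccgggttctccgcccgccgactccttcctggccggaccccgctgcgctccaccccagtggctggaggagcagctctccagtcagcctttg
BCL2L11: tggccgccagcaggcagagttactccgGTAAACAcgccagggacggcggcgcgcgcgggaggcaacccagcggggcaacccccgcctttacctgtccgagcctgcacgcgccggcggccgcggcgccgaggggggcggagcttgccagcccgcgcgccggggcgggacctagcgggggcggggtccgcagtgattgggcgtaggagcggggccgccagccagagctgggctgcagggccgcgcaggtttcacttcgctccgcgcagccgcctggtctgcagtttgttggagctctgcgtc

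The genes through which proteasome block is usually recognised differed little. Proteasome 20S core genes had 10 of 13 tested members higher and a median of 0.04, and 19S cap genes had 12 of 18 higher and a median of 0.04; 0 passed the test and both medians were below 0 without combination 1. PSMB5, the subunit that bortezomib binds, was at 31.6, 23.0 and 28.7 CPM in the combination and 21.8, 19.7 and 27.4 CPM in elesclomol, with overlap (0.27 ± 0.18). ADRM1, a ubiquitin receptor of the cap, was at 116, 86.6 and 99.8 CPM in the combination and 93.5, 104 and 97.5 CPM in elesclomol (0.04 ± 0.12), and its sign turned with GC correction. The autophagy receptor SQSTM1 was at 208, 137 and 155 CPM in the combination and 164, 157 and 179 CPM in elesclomol (0.00 ± 0.15). HMOX1, an antioxidant enzyme, stayed between 0.752 and 1.41 CPM in the combination and between 1.22 and 1.68 CPM in elesclomol.

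Of 22 unfolded protein response genes, 17 were higher and 5 lower in the combination, with a median of 0.13 that dropped to 0.03 without combination 3, and 0 passed the test. SDF2L1, a chaperone partner in the endoplasmic reticulum, was at 51.9, 35.9 and 46.6 CPM in the combination and 36.6, 24.2 and 37.9 CPM in elesclomol (0.45 ± 0.16). PDIA4, a disulfide isomerase, differed by 0.23 ± 0.11. In 3 of the 22 the libraries did not overlap, all lower, which is no more than the share of 16% over all tested genes. XBP1, the transcription factor of this response and of plasma cells, was at 2231, 2181 and 2293 CPM in the combination and 2646, 2996 and 2957 CPM in elesclomol (-0.36 ± 0.10, adjusted p = 0.239). The others were ERN1 (-0.24 ± 0.13), which encodes the sensor that splices XBP1, and SEL1L (-0.21 ± 0.13). HSPA5, the chaperone BiP, was at 279, 230 and 323 CPM in the combination and 466, 221 and 257 CPM in elesclomol, where elesclomol 1 was the highest (-0.18 ± 0.29, or 0.21 without it). HERPUD1 differed by 0.04 ± 0.21. ATF4, the factor of the integrated stress response, was at 148, 96.7 and 111 CPM in the combination and 94.3, 102 and 110 CPM in elesclomol (0.21 ± 0.13), and 12 of its 20 tested list members were higher with a median of 0.08. DDIT3, which encodes CHOP, was at 8.51, 6.76 and 6.07 CPM in the combination and 5.33, 4.76 and 5.84 CPM in elesclomol, just without overlap (0.43 ± 0.20, adjusted p = 0.417).

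Cytosolic heat shock genes had 12 of 21 tested members higher and a median of 0.02. HSP90AA1, the inducible HSP90, was at 79.5, 64.6 and 68.9 CPM in the combination and 116, 109 and 98.6 CPM in elesclomol (-0.60 ± 0.15, adjusted p = 0.204). DNAJB1, an HSP70 co-chaperone, was at 123, 41.0 and 62.4 CPM in the combination and 35.04, 38.4 and 54.4 CPM in elesclomol, with combination 1 far above the rest (0.83 ± 0.38). HSPA1B, an inducible HSP70 whose reads are hard to tell apart from those of HSPA1A, was at 122, 21.6 and 46.6 CPM in the combination and 10.8, 24.4 and 33.0 CPM in elesclomol (1.48 ± 0.59), and there too combination 1 stood alone. HSPA8, the constitutive HSP70, differed by 0.22 ± 0.13.

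On the elesclomol side few genes separated the groups. FDX1 was at 23.3, 23.1 and 28.2 CPM in the combination and 25.3, 25.3 and 21.8 CPM in elesclomol (0.05 ± 0.12), and the 12 tested genes of its lipoylation list divided evenly, 6 and 6, around a median of -0.01. In 2 of the 12 the libraries did not overlap, DLST (-0.30 ± 0.16) and OGDH (-0.16 ± 0.11), subunits of the 2-oxoglutarate dehydrogenase complex, both lower. That count is near the share of 16% without overlap over all tested genes. SLC31A1, the copper importer CTR1, was at 65.3, 41.9 and 54.8 CPM in the combination and 44.2, 42.4 and 45.7 CPM in elesclomol (0.30 ± 0.13), and COX17, which hands copper to cytochrome oxidase, was lower without overlap (-0.27 ± 0.11). Copper handling genes divided 7 and 7, and COX17 was the 1 of the 14 without overlap, against 16% of all tested genes. None of the 7 metallothionein genes passed the filter on low counts.

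**Figure D2:**
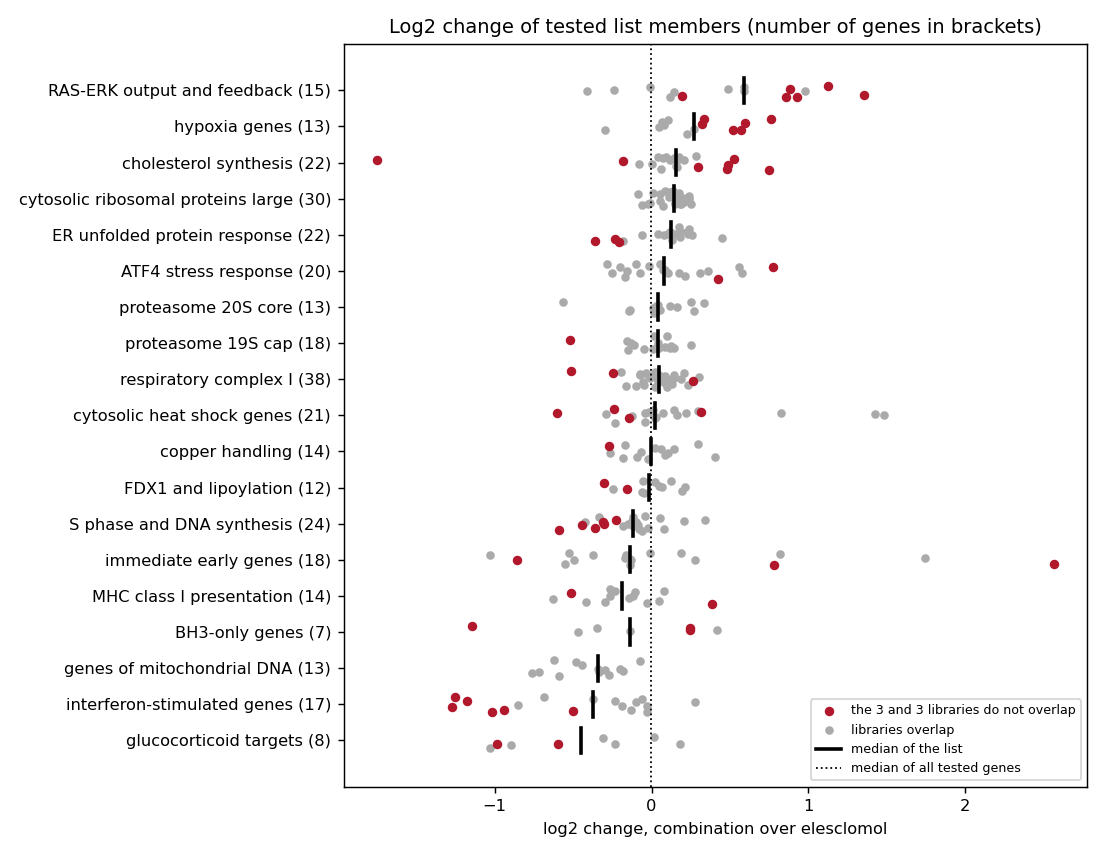
Log2 change of combination over elesclomol (horizontal axis) for each tested member of 19 gene lists, with list medians as black bars and the median of all tested genes as a dotted line. RAS-ERK, hypoxia and cholesterol genes lie mostly to the right and interferon, glucocorticoid and mitochondrial DNA genes mostly to the left, while proteasome, copper and lipoylation genes lie around 0; none passed the test.

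Hypoxia genes, targets of the HIF transcription factors, were higher in the combination in 12 of 13 tested members, with a median of 0.27. Of the 13, 0 passed the test and 6 did not overlap, all higher, against 16% of all tested genes without overlap. VEGFA, the blood vessel growth factor, was at 26.4, 21.5 and 20.04 CPM in the combination and 15.7, 16.8 and 14.97 CPM in elesclomol (0.52 ± 0.16, adjusted p = 0.249). ADM, the peptide hormone adrenomedullin, was at 257, 206 and 152 CPM in the combination and 126, 132 and 148 CPM in elesclomol (0.60 ± 0.24). PDK1, which inhibits pyruvate dehydrogenase, was the member that was lower (-0.30 ± 0.18). The median of this list stayed between 0.21 and 0.35 when any library was left out.

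Cholesterol synthesis genes had 19 of 22 tested members higher and a median of 0.16, which was 0.05 without combination 3 and 0.26 with voom. HSD17B7, an enzyme of the pathway, was at 22.3, 25.7 and 26.0 CPM in the combination and 14.9, 15.1 and 14.0 CPM in elesclomol (0.75 ± 0.18, adjusted p = 0.156). MVK, the kinase that acts on mevalonate, was higher by 0.48 ± 0.21. Neither gene overlapped between the groups. Against this direction, SREBF2, the factor that drives the pathway, was lower without overlap (-0.18 ± 0.10), as were its activating protease MBTPS1, above, and the low-count gene SQLE (-1.75 ± 0.76).

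Interferon-stimulated genes were lower in 16 of 17 tested members, with a median of -0.38. Of the 17, 0 passed the test and 6 did not overlap, all lower, against 16% of all tested genes without overlap. IFIT3 was at 3.42, 4.51 and 3.25 CPM in the combination and 6.70, 9.10 and 5.60 CPM in elesclomol (-0.94 ± 0.26, adjusted p = 0.209). IFI6 differed by -1.25 ± 0.35 and IFIT1 by -1.27 ± 0.44. MX1 was at 30.5, 36.7 and 23.6 CPM in the combination and 34.3, 57.0 and 54.3 CPM in elesclomol (-0.68 ± 0.22). The median was -0.10 without elesclomol 3 and -0.19 over the 7 members that passed a stricter filter, an average of at least 3 log2 CPM. MHC class I presentation genes, a related set, were lower in 11 of 14 members with a median of -0.19, which was -0.05 without elesclomol 3.

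**Figure D3:**
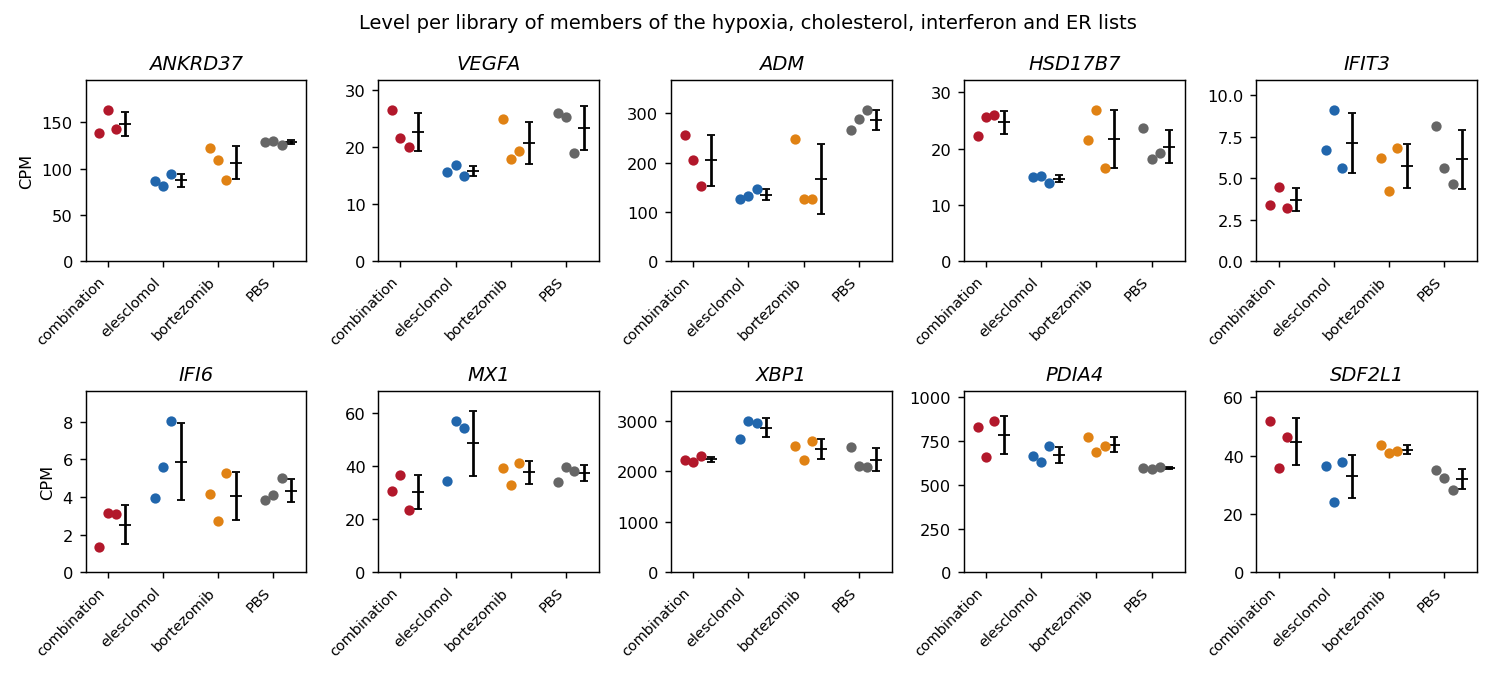
Level in CPM (vertical axes, from 0) of 10 members of the hypoxia, cholesterol, interferon and unfolded protein response lists in the 3 libraries each of 4 groups, as points, with the group mean and SD in black. ANKRD37, VEGFA, ADM and HSD17B7 lie higher in the combination than in elesclomol and IFIT3, IFI6 and XBP1 lower, while MX1, PDIA4 and SDF2L1 overlap.

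Glucocorticoid receptor targets were lower in 6 of 8 tested members, with a median of -0.45 that was -0.27 under the stricter filter and also with the mean log2 CPM of host cell markers as a covariate. FKBP5, a chaperone of the receptor, was at 62.2, 41.5 and 45.03 CPM in the combination and 75.4, 76.6 and 73.2 CPM in elesclomol (-0.60 ± 0.23, adjusted p = 0.331). KLF9 (-0.90 ± 0.40) and DUSP1 (-1.03 ± 0.52), which is also an immediate early gene, overlapped. S phase genes were lower in 20 of 24 members, with a median of -0.12 that moved to -0.22 without combination 1 and to -0.07 without combination 2. RRM2, which makes deoxynucleotides, was at 276, 244 and 211 CPM in the combination and 373, 393 and 334 CPM in elesclomol (-0.59 ± 0.17, adjusted p = 0.235), and the helicase subunit MCM6 was lower without overlap (-0.31 ± 0.12). The 24 genes of the G2 and M phases divided 13 and 11 around a median of 0.05, whose sign was not stable: it was -0.02 without elesclomol 1, -0.06 with voom and -0.10, with 5 higher and 19 lower, with the host marker covariate.

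All 13 protein-coding genes of mitochondrial DNA were lower in the combination, with a median of -0.34, but in none did the libraries separate. MT-ND5 (-0.76 ± 0.28, adjusted p = 0.31) and MT-ND4 (-0.72 ± 0.26) had the smallest p. The 13 genes summed to 12254, 13400.2 and 11325 CPM in the combination and 15021, 19688 and 12120.2 CPM in elesclomol, with elesclomol 2 the highest, and the median was -0.19 without elesclomol 2, -0.60 without elesclomol 3 and -0.59 without combination 2. The nuclear genes of complexes II to V leaned the other way, 30 of 38 higher with a median of 0.10, or 0.01 without combination 1. Cytosolic ribosomal protein genes were higher in 26 of 30 members of the large subunit (median 0.14) and 20 of 23 of the small subunit (0.15), and these medians were 0.05 and 0.07 without combination 1, the GC-rich library, and 0.25 and 0.26 without combination 2. GC correction gave 0.08 for the large subunit and 0.09 for the small.

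Of 18 tested myeloma identity genes, 14 were lower, with a median of -0.13, and 0 passed the test. The median was -0.06, with 12 of 18 lower, after GC and length correction, and -0.09, with 11 of 18 lower, without combination 1. PRDM1, which encodes BLIMP-1, the regulator that sets the plasma cell fate, was at 203, 306 and 302 CPM in the combination and 394, 424 and 346 CPM in elesclomol (-0.52 ± 0.20, adjusted p = 0.313). Its partner IRF4 went the other way, at 815, 986 and 848 CPM in the combination and 729, 715 and 771 CPM in elesclomol (0.26 ± 0.11, adjusted p = 0.363). TNFRSF17, the surface antigen BCMA, was at 301, 279 and 237 CPM in the combination and 209, 210 and 235 CPM in elesclomol (0.32 ± 0.11, adjusted p = 0.274). All of these, and XBP1, were without overlap.

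Erythroid and granulocyte markers differed mainly through elesclomol 1. The 3 tested erythroid markers had a median of -2.62, or -0.66 without that library, and the 6 tested granulocyte markers -1.72, or -0.03 without it. HBB, the beta globin gene, was at 11.2, 14.3 and 30.8 CPM in the combination and 286, 31.8 and 27.1 CPM in elesclomol. TFRC, also tested as an erythroid marker, went the other way without overlap. It was at 180, 159 and 155 CPM in the combination and 128, 150 and 118 CPM in elesclomol. The low-count granulocyte marker MMP8 was at 0, 0.601 and 0.847 CPM in the combination and 10.1, 1.68 and 3.17 CPM in elesclomol, without overlap. Outside elesclomol its highest level was 1.70 CPM, in bortezomib 3. MMP8 passed the filter on low counts only through the elesclomol libraries, so its direction is no support for a difference in granulocytes. Reads of mouse transcripts can align to human genes, and how mouse reads were handled is not stated in the labels. Stromal and bone markers were lower in 6 of 9 tested members, with a median of -0.35, and 0 passed the test. The median was -0.19 without elesclomol 1, -0.16 without combination 1, -0.37 without elesclomol 3 and 0.00 over the 6 members that passed the stricter filter. The 11 markers found summed to 135, 112 and 158 CPM in the combination and 202, 156 and 130 CPM in elesclomol, with overlap. In 3 of the 9 the libraries did not overlap, all lower, against 16% of all tested genes. FN1, the matrix protein fibronectin, was at 15.03, 16.5 and 17.5 CPM in the combination and 39.2, 33.0 and 18.5 CPM in elesclomol (-0.88 ± 0.24, adjusted p = 0.209). SPARC, a matrix protein of bone, was at 27.1, 21.9 and 29.6 CPM in the combination and 34.0, 35.3 and 33.7 CPM in elesclomol (-0.39 ± 0.18). PDGFRB, a growth factor receptor of stromal cells, was at 2.10, 1.65 and 1.69 CPM in the combination and 4.72, 2.24 and 3.65 CPM in elesclomol (-0.94 ± 0.41). COL1A1, the main bone collagen, was at 16.2, 11.1 and 29.1 CPM in the combination and 31.5, 16.1 and 7.91 CPM in elesclomol (0.04 ± 0.65). The nuclear RNA MALAT1 varied within each group, at 1581, 4135 and 2880.3 CPM in the combination and 6806, 5254 and 2685 CPM in elesclomol (-0.78 ± 0.47).

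The same drug step without elesclomol, bortezomib against PBS, shares no library with the comparison above, and the difference between the steps was tested in the same model. HDAC9 was the 1 gene of 13085 (0.00764%) that passed. Its level was 83.8 ± 10.7 CPM in the combination and 43.6 ± 3.11 CPM in elesclomol, and 57.8 ± 13.0 CPM in bortezomib and 99.5 ± 14.6 CPM in PBS (SD, n = 3 each). The combination stood above elesclomol by 0.94 ± 0.16, whereas bortezomib stood below PBS by a log2 change of -0.78 ± 0.16, and the difference of these was 1.72 ± 0.23 (edgeR adjusted p = 0.0229). The unadjusted p was under 0.05 for 1150 genes (8.79%). DESeq2 called 32 genes in this test (0.245%) and voom 310 (2.37%). With the replicate number as a block, fitted to only the 12 libraries outside the delayed combination, edgeR called 10. HDAC9 (adjusted p = 0.0128), DUSP2, PHLDA1 and FOXP1 were among them. The block and the dropped group were not tried apart, so the rise cannot be assigned to the block. With GC and length correction 2 genes were called, DUSP2 and PDZRN4, and HDAC9 was not (1.65 ± 0.32, adjusted p = 0.107). Without bortezomib 1 there were 27 calls, without combination 3 there were 3 and without combination 1 there were 2. Leaving out a library of the delayed combination, which is in neither step, gave 2 to 6. HDAC9 itself did not pass without PBS 1, PBS 3, bortezomib 2, bortezomib 3, elesclomol 1, elesclomol 2, elesclomol 3 or combination 2, with an adjusted p between 0.0503 and 0.106. In these settings 0 genes were called, except that 1 other gene was called without elesclomol 3. For BCL2L11, which had opposite signs in the steps, the difference was -2.29 ± 0.42 (adjusted p = 0.107; 0.000285 without bortezomib 1).

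**Figure D4:**
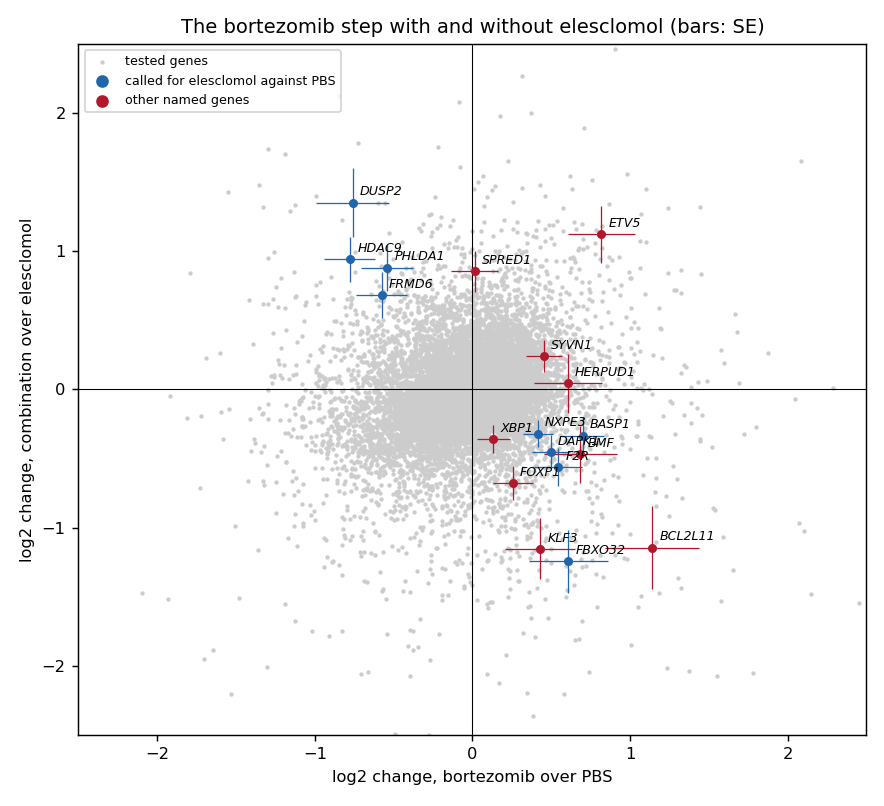
Log2 change of combination over elesclomol (vertical axis) against that of bortezomib over PBS (horizontal axis) for the tested genes, with named genes and their SE as bars; 25 genes lie outside the axes. HDAC9, DUSP2, PHLDA1 and FRMD6 lie at upper left and FBXO32, BCL2L11, KLF3, F2R, DAPK1, BASP1 and NXPE3 at lower right, while ETV5 is above 0 on both axes.

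The named genes stood in different ways in bortezomib against PBS. SPRED1 differed by 0.85 ± 0.15 with elesclomol present and by 0.01 ± 0.15 without it, at 53.7 CPM in bortezomib and 53.3 CPM in PBS on average. The difference between these was 0.84 ± 0.21 and did not pass (adjusted p = 0.322). ETV5 was higher in both, by 1.12 ± 0.21 and by 0.82 ± 0.21, and SDF2L1 by 0.45 ± 0.16 and 0.40. SYVN1, a ubiquitin ligase of the endoplasmic reticulum, was higher by 0.24 ± 0.11 and 0.45. Bortezomib against PBS itself called 0 genes in edgeR (0%), with 1388 at an unadjusted p under 0.05, (10.6%), and DESeq2 called 9 (0.0688%). Across the 13085 genes the log2 changes of the steps had a Pearson r of 0.07 and a Spearman rho of 0.21, and 59.4% had the same sign; these are descriptions over genes, which are not independent replicates. Pearson's r was -0.11 without bortezomib 1 and combination 1, which share a GC-rich profile (GC correlations 0.509 and 0.494), and 0.00061 with GC correction. It was also below 0 when PBS 2, bortezomib 1, elesclomol 2 or combination 1 alone was left out.

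The 9 genes that passed in elesclomol against PBS were picked on the same elesclomol libraries, so their values here are descriptions and a movement back towards PBS is partly built into the choice. For each, the combination mean lay between the elesclomol and PBS means, and so did the mean of bortezomib alone. Log2 changes of the combination over bortezomib ran from -0.20 (FBXO32) to 0.53 (HDAC9) among the 9. The 4 that elesclomol had lowered were higher in the combination than in elesclomol: HDAC9, DUSP2 and PHLDA1, above, and FRMD6, a FERM domain protein, at 20.4, 31.7 and 20.6 CPM in the combination and 15.24, 14.98 and 14.97 CPM in elesclomol (0.68 ± 0.17). The 5 that it had raised were lower. Besides FBXO32, DAPK1, a death-associated kinase, was at 94.7, 83.1 and 113 CPM in the combination and 137, 133 and 129 CPM in elesclomol (-0.45 ± 0.12), and F2R, the thrombin receptor, was at 13.6, 9.77 and 11.6 CPM in the combination and 15.1, 18.9 and 17.9 CPM in elesclomol (-0.56 ± 0.14). NXPE3 (-0.32 ± 0.09) and BASP1 (-0.33 ± 0.13), a membrane-bound brain protein, differed less. None of the 9 overlapped between combination and elesclomol. Against PBS, the log2 changes of elesclomol and of the combination were -1.97 and -0.62 for DUSP2, -1.29 and -0.41 for PHLDA1, -1.19 and -0.25 for HDAC9, 1.65 and 0.41 for FBXO32, and 0.87 and 0.42 for DAPK1; these comparisons share the PBS libraries. None of the 9 passed the test for the combination against PBS.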

How the data were processed

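The deposited values are raw read counts per gene for 57773 Ensembl genes in each library. Per the submitters' processing notes the authors aligned reads with STAR 2.5.4b and counted them with featureCounts 1.6.1 on GRCh37; the strand setting and annotation release are unknown here. Per the labels' protocols, total RNA from frozen marrow pellets was depleted of ribosomal RNA and made into stranded libraries. GENCODE 29 named 52338 genes. Samples were grouped by title.

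All 15 libraries entered 1 edgeR 4.0.16 model (R 4.3.3, quasi-likelihood F test, robust, TMM factors, genes kept by filterByExpr, minimum count 10, 13085 in all). The common biological coefficient of variation was 0.171. The contrasts were the combination against elesclomol, bortezomib against PBS and their difference. A Benjamini-Hochberg adjusted p under 0.05 over all tested genes passed, and SE is the log2 change over the root of F. With 3 libraries a group, p-values weigh a difference against a spread between libraries that was estimated over all 15. Genes of mitochondrial DNA held 35.5% to 40.1% of the counts of the 6 libraries. Most of this was the ribosomal RNA MT-RNR2, with 31.4% to 37.2%. The code was tested on simulated data.

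Named genes were up to 12 with the smallest p in each direction whose higher group averaged 3 log2 CPM or more and whose libraries did not overlap, since none passed; clone names, pseudogenes, antisense and small RNAs were left out. A further 27 genes were given whatever their change, and up to 4 per list by p. Members of lists beyond these were named for their role. Members, the 49 lists (794 genes, 786 found) and genes were chosen with earlier results of these data known, so lists are described by counts and medians without a test.

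Alternatives were DESeq2 1.42.0, edgeR with DESeq2 size factors, voom with quality weights (limma 3.58.1), no filter on low counts, a stricter filter (average of 3 log2 CPM), only the 6 libraries, the replicate number as a block, GC and length correction (loess, span 0.3, for 97.8% of genes), a host marker covariate, a 1.5-fold threshold and leaving out each library. The block was fitted to only the 6 libraries for the comparison, and to only the 12 outside the delayed combination for the difference of the steps. Leaving out bortezomib 1 with combination 1, and each of the 9 libraries outside the comparison, was chosen after seeing the data. Same-numbered combination and bortezomib libraries deviated together from their group means (correlations 0.655, 0.523 and 0.118), a pairing taken from the data with no source in the labels, so the blocked count stands beside the test of the difference. Plots used Python 3.11.15 and matplotlib. Some members of the lists are counted but not reported here by name.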

Additional observations from a re-analysis of the deposited data

Results flagged for a closer look

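HDAC9 is the 1 gene whose bortezomib step differed between mice with and without elesclomol by the test of the difference itself. The log2 change was 0.94 for the combination over elesclomol and -0.78 for bortezomib over PBS, and the difference was 1.72 ± 0.23 (edgeR adjusted p = 0.0229). All 3 combination libraries lay above all 3 elesclomol libraries, and all 3 bortezomib libraries below all 3 PBS libraries. HDAC9 is also among the 9 genes chosen on the elesclomol libraries, which enter this difference. Its adjusted p was 0.107 with GC and length correction and 0.193 with the host marker covariate. It was between 0.0503 and 0.106, above 0.05, without any 1 of PBS 1, PBS 3, bortezomib 2, bortezomib 3, elesclomol 1, elesclomol 2, elesclomol 3 and combination 2.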

How the results depend on the processing

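The count of 0 genes for the combination against elesclomol held with only the 6 libraries, DESeq2 size factors, the stricter filter, GC and length correction, the host marker covariate and the 1.5-fold threshold, and it was 53 with DESeq2, 205 with voom and 291 without the filter (262 of them among the 13085). It ranged from 0 to 14 over the libraries left out. It was 12 without bortezomib 1, HDAC9, DUSP2, DUSP6, FBXO32, KLF3 and BCL2L11 among them, 14 without delayed combination 1, SPRED1, FOXP1 and ANKRD37 among them, and 1 without elesclomol 3. The number shared by combination and elesclomol libraries did not pair them (correlations -0.073, 0.266 and -0.069, and combination 1 was closest to elesclomol 3 at 0.343). The replicate block, fitted to only the 6 libraries, gave 0 calls. That fit leaves little to estimate the spread from (edgeR adjusted p = 0.273 for HDAC9), so its 0 calls decide nothing. For the difference of the steps the count of 1 was 32 with DESeq2, 127 without the filter, 10 with the replicate block and without the delayed combination, 2 with GC and length correction, 33 without bortezomib 1 and combination 1, and 0 to 27 when 1 library was left out. Bortezomib against PBS gave 9 calls with DESeq2 and 0 to 3 when 1 library was left out (3 without bortezomib 1).

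Pearson's r between the steps was -0.115 without bortezomib 1 and combination 1, and -0.141 (without combination 1) to 0.217 (without combination 2) over libraries left out. Genes near 0 changed sign: HMOX1 to 0.10 and HSPA5 to 0.32 with the host marker covariate, ADRM1 to -0.087 with GC correction and -0.032 with the host covariate, HERPUD1 to -0.016 with GC correction, and SQSTM1 to -0.0058 with DESeq2, -0.0062 with its size factors, -0.10 with voom, -0.0018 with the stricter filter (average of 3 log2 CPM), -0.020 with the replicate block and -0.10 with GC correction. Over libraries left out the log2 change ran from -0.38 to 0.21 for HSPA5, -0.070 to 0.094 for FDX1, -0.076 to 0.12 for ADRM1, -0.80 to 0.16 for JUN, -0.074 to 0.21 for HERPUD1, -0.43 to 0.66 for COL1A1 and -0.19 to 0.10 for SQSTM1. Of the 47 genes followed through every alternative, no other changed sign. For those chosen for lack of overlap, leaving out a library could hardly turn the sign. The causes of the changes were not tested. With 3 libraries a group and adjusted p of 0.0888 or more, differences of the size described were not called by the main test. Genes that reached a count of about 10 in fewer than 3 of the 15 libraries were not tested, while genes with few reads in the compared libraries could be.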
